A study of Homo sapiens with 2 samples.

Results

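The miR-99/100 and miR-125 families were followed through 9 mature microRNAs: hsa-miR-99a-5p, hsa-miR-99b-5p and hsa-miR-100-5p, hsa-miR-125a-5p and hsa-miR-125b-5p, and the other hairpin arms hsa-miR-99a-3p, hsa-miR-99b-3p, hsa-miR-100-3p and hsa-miR-125a-3p. They were chosen by name from the 2656 mature microRNAs of a small RNA sequencing count table. The table compares MDA-MB-231, a human triple-negative breast cancer cell line, transduced with an shRNA against the fatty acid elongase ELOVL5 (shELOVL5) with the same line transduced with a control shRNA (shLuc). Each condition had 1 library, and both carried an shRNA. The level of ELOVL5 itself, and whether the transduced cells were clones or pools, were not analysed here.

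The miR-99/100 and miR-125 families are ancient microRNAs. They lie beside let-7 genes in clusters that are thought to be transcribed together, and miR-125 is the vertebrate counterpart of the worm timing microRNA lin-4. A microRNA guides Argonaute proteins to messenger RNAs mainly through its seed, bases 2 to 8, and the guide arm of a hairpin is usually kept while the other arm is degraded. Known targets include MTOR and IGF1R for miR-99/100, and ERBB2 and ERBB3 for miR-125.

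The 5 guide arms are shown because their seeds define the families and because 2 of them are nearly identical. They are written 5′ to 3′ with the seed in capitals, from RefSeq (GRCh38.p14), in which all 9 members were matched by name.
hsa-miR-100-5p: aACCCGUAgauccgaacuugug
hsa-miR-99a-5p: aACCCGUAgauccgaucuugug
hsa-miR-99b-5p: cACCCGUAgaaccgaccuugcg
hsa-miR-125a-5p: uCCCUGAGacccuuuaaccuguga
hsa-miR-125b-5p: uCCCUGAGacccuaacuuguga

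The 3 miR-99/100 guides share the seed ACCCGUA, and no other of the 2370 mature microRNAs in the RefSeq table holds it. hsa-miR-100-5p and hsa-miR-99a-5p are alike at 21 of 22 positions and differ by A16U, counted from 1 at the 5′ end of hsa-miR-100-5p. hsa-miR-99b-5p differs from hsa-miR-100-5p at 4 positions (A1C, U11A, A16C and U21C), none of them in the seed. The miR-125 guides share the seed CCCUGAG and their first 13 bases, and are 3 edits apart. The same seed is held by hsa-miR-4319, which had 0 counts in both libraries. Such a 0 is compatible with up to 3 counts, which is 0.427 counts per 1000000 (CPM) in shLuc and 0.435 CPM in shELOVL5.

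The other arms are shown because their balance with the guides is compared further on.
hsa-miR-99a-3p: cAAGCUCGcuucuaugggucug
hsa-miR-99b-3p: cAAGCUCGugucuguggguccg
hsa-miR-100-3p: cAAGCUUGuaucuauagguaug
hsa-miR-125a-3p: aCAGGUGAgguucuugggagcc

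hsa-miR-99a-3p and hsa-miR-99b-3p have the same seed and differ at 4 positions. hsa-miR-100-3p departs from hsa-miR-99a-3p by U7C inside the seed, so that the 3p arms of this family fall into 2 seed groups while the 5p arms form 1. The seed of hsa-miR-125a-3p is held by no other microRNA of the table.

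The hairpins lie in 3 clusters (GRCh38.p14, host genes from GENCODE release 29). MIR100 (chr11:122152229-122152308), MIRLET7A2 (chr11:122146522-122146593) and MIR125B1 (chr11:122099757-122099844) lie in introns of the long non-coding gene MIR100HG, over 52.6 kb on the minus strand. MIR99A (chr21:16539089-16539169), MIRLET7C (chr21:16539828-16539911) and MIR125B2, whose arms are annotated at chr21:16590253-16590311, lie in introns of MIR99AHG over 51.2 kb. MIR99B (chr19:51692612-51692681), MIRLET7E (chr19:51692786-51692864) and MIR125A (chr19:51693254-51693339) lie within 728 bases, in an intron of SPACA6 and across an annotated exon of the antisense gene SPACA6P-AS. hsa-miR-125b-5p has the same sequence at both of its loci, so its count cannot be divided between chromosomes 11 and 21.

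The libraries held 7109272 counts (shLuc) and 6811811 counts (shELOVL5) after 1 value was kept per mature microRNA. Breast cancer markers of the basal or mesenchymal type, hsa-miR-221-3p and hsa-miR-222-3p, summed to 79457 CPM in shLuc and 74099 CPM in shELOVL5. The 6 epithelial and luminal markers, of which 3 were expressed, summed to 288 CPM in shLuc and 371 CPM in shELOVL5. Counts were 281 in shLuc and 471 in shELOVL5 for hsa-miR-200a-3p, and 1265 and 1626 for hsa-miR-200b-3p. By contrast, hsa-miR-200c-3p did not follow this sum, with 467 and 450 counts. Few counts were found for hsa-miR-141-3p (3 and 7), hsa-miR-205-5p (2 and 3) and hsa-miR-375-3p (5 in both). The 6 blood markers summed to 398 and 331 CPM, almost all from hsa-miR-486-5p at 397 and 311 CPM. The others went against this sum where they were counted at all, with hsa-miR-142-5p at 6 counts in shLuc and 84 in shELOVL5, hsa-miR-142-3p at 2 and 45, and hsa-miR-223-3p at 0 in both. The 4 endothelial and stromal markers summed to 633 and 761 CPM, almost all from hsa-miR-126-3p at 626 and 750 CPM. hsa-miR-126-5p had 37 counts in shLuc and 63 in shELOVL5, hsa-miR-143-3p had 12 and 11, and hsa-miR-145-5p had 2 and 3. The 5 liver, muscle and neuron markers summed to 29.1 and 32.5 CPM, but hsa-miR-1-3p had 80 counts in shLuc and 14 in shELOVL5, hsa-miR-206 had 69 and 155, and hsa-miR-124-3p had 0 in both. Their part in the differences described here was not tested. In bulk RNA, fewer cells with a microRNA and less of it per cell cannot be told apart.

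All ratios are shELOVL5 over shLuc, of CPM scaled with TMM factors (a trimmed mean that makes most microRNAs level). Their 95% intervals cover counting error only. With 1 library per condition there is no replicate check and no test, and a difference cannot be separated from that between any 2 cultures. A microRNA counted as expressed had a mean of at least 50 CPM and at least 100 counts over both libraries, which held for 191 microRNAs and for 7 of the 9 members.

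The families took 29.2% of all microRNA counts in shLuc and 26.0% in shELOVL5. Among the 7 expressed members the ratio lay below 1 for 6, beside 109 of all 191. It lay above 1 for hsa-miR-125b-5p, beside 82 of the 191. Among the 6 was hsa-miR-125a-3p at 0.994, whose interval (0.867 to 1.14) included 1. The median log2 ratio of the 7 was -0.20, against -0.033 over all 191. None of the 7 was 2-fold different, a size reached by 1.57% of the 191 microRNAs in either direction. An interval wholly below 1 was found for 5 of the 7, beside 41.9% of all 191, and an interval wholly above 1 for 1 of the 7, beside 31.9%. Such intervals are narrower for abundant microRNAs, and the 191 were not matched to the members in abundance. A level at least 20% lower in shELOVL5 was found for 1 of the 7 and for 9.95% of the 191, and one at least 25% higher for 0 of the 7 and for 9.95% of the 191.

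**Figure D1:**
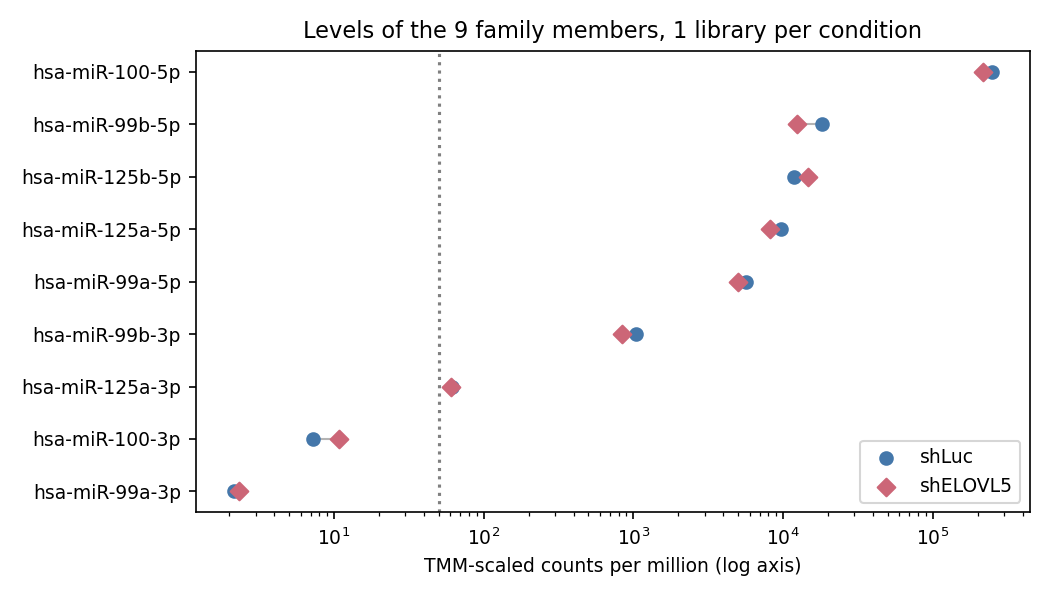
Scaled level of each of the 9 members in shLuc (circles) and shELOVL5 (diamonds), 1 library each, in CPM on a log axis, with the expression limit of 50 CPM dotted. The members span from 2.14 CPM (hsa-miR-99a-3p) to 248557 CPM (hsa-miR-100-5p) in shLuc, and the pairs of points lie close together on this scale.

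Among the miR-99/100 guide arms, hsa-miR-100-5p held most counts and hsa-miR-99b-5p differed most between the libraries. hsa-miR-100-5p had 1745204 counts (248557 CPM) in shLuc and 1488025 counts (215746 CPM) in shELOVL5, a ratio of 0.868 (0.866 to 0.870). It was the most abundant microRNA of both libraries, and its ratio was the 44th from the lowest of 191. hsa-miR-99b-5p had 128680 counts (18327 CPM) in shLuc and 85758 counts (12434 CPM) in shELOVL5, a ratio of 0.678 (0.673 to 0.684). Its level was 1.47-fold lower in shELOVL5, the 2nd lowest ratio of the 191, and it moved from rank 14 to rank 17 by abundance. hsa-miR-99a-5p had 39799 counts (5668 CPM) in shLuc and 34521 counts (5005 CPM) in shELOVL5, a ratio of 0.883 (0.870 to 0.896).

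All 3 guides of this seed were thus lower in the shELOVL5 library. Summed over the seed, the level went from 272552 to 233185 CPM, a ratio of 0.856 (0.854 to 0.857). Without hsa-miR-100-5p the sum of the other two had a ratio of 0.727 (0.721 to 0.732). hsa-miR-99b-5p made up 6.72% of the family (exact binomial 95% interval 6.69 to 6.76%) in shLuc and 5.33% (5.30 to 5.37%) in shELOVL5. The share of hsa-miR-100-5p was 91.2% in shLuc and 92.5% in shELOVL5.

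The ratio of hsa-miR-99a-5p (0.883) lay near that of hsa-miR-100-5p (0.868), from which it differs by a single base. These ratios were the 51st and the 44th from the lowest of 191, with other microRNAs between them. hsa-miR-99a-5p counts came to 2.28% of those of hsa-miR-100-5p in shLuc and to 2.32% in shELOVL5. The ratio between them differed between the libraries by a factor of 1.017 (1.003 to 1.032), a small difference whose interval excluded 1. For hsa-miR-99b-5p against hsa-miR-100-5p this factor was 0.782 (0.775 to 0.789). How the counting treated reads that match near-identical microRNAs is not given in the sources used here, and the part of shared reads in the hsa-miR-99a-5p count was not tested.

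In the miR-125 family the guides went opposite ways. hsa-miR-125a-5p had 68370 counts (9737 CPM) in shLuc and 56651 counts (8214 CPM) in shELOVL5, a ratio of 0.844 (0.834 to 0.853). hsa-miR-125b-5p had 83451 counts in shLuc and 102053 counts in shELOVL5, a ratio of 1.24 (1.23 to 1.26). It was the member with the highest ratio among those expressed, the 172nd of 191 from the lowest. The relation of hsa-miR-125a-5p to hsa-miR-125b-5p was lower in shELOVL5 by a factor of 0.678 (0.668 to 0.687), which does not depend on how the libraries are scaled.

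The seed CCCUGAG as a whole differed little. The summed level of both guides was 21623 CPM in shLuc and 23010 CPM in shELOVL5, a ratio of 1.06 (1.06 to 1.07). The make-up changed more, as hsa-miR-125b-5p gave 55.0% of the family (54.7 to 55.2%) in shLuc and 64.3% (64.1 to 64.5%) in shELOVL5.

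The table lists hsa-miR-125b-5p under both of its hairpins, with 83451 and 102053 counts under mir-125b-1 and 81778 and 99624 under mir-125b-2 (shLuc, then shELOVL5). The extra counts under mir-125b-1 were 2.00% of that row in shLuc and 2.38% in shELOVL5. The rows were nearly equal, and the higher was used.

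**Figure D2:**
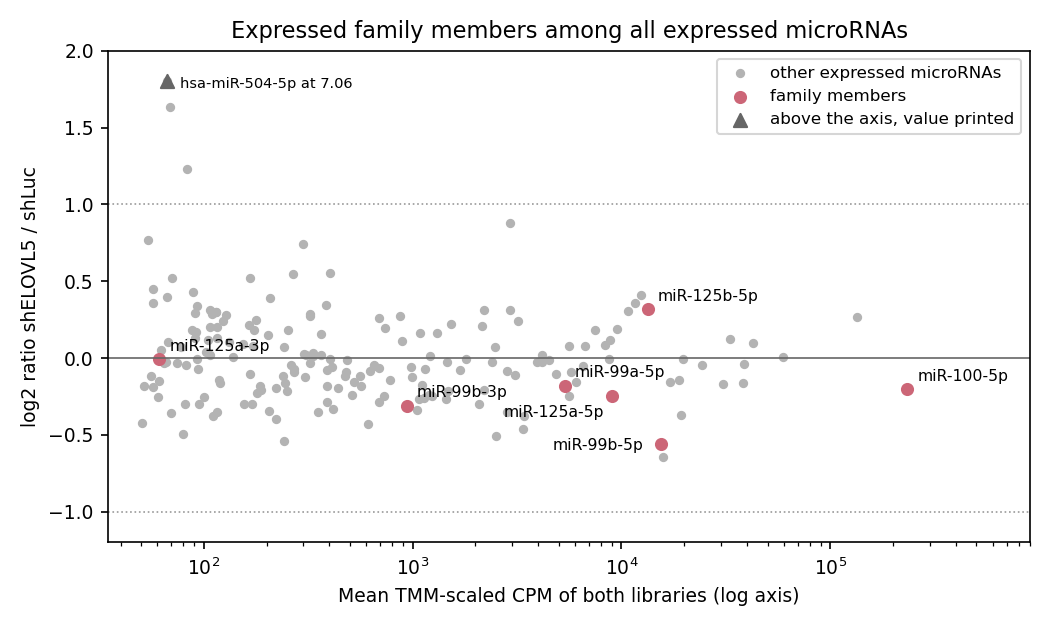
Log2 ratio of shELOVL5 over shLuc against the mean scaled CPM of both libraries (log axis) for 191 expressed microRNAs, with the 7 expressed members in colour and dotted lines at 2-fold; hsa-miR-504-5p lies above the axis and is drawn at its edge. hsa-miR-99b-5p at -0.56 lies near the lower edge of the cloud and hsa-miR-125b-5p at 0.32 towards the upper side.

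The chromosome 19 cluster was compared member by member, since its hairpins are the closest together. hsa-miR-99b-5p was lowest at 0.678, hsa-miR-125a-5p followed at 0.844, and the let-7 guide between them on the genome, hsa-let-7e-5p, stood near level with 28030 counts in shLuc and 27010 in shELOVL5, a ratio of 0.981 (0.965 to 0.998). Relative to hsa-let-7e-5p, hsa-miR-99b-5p was lower by a factor of 0.692 (0.679 to 0.705) and hsa-miR-125a-5p by 0.860 (0.843 to 0.877). Against hsa-miR-125a-5p, hsa-miR-99b-5p was lower by a factor of 0.804 (0.793 to 0.816). The neighbours thus differed from each other by more than counting error.

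The other arms of this cluster were less abundant than the guides, and their intervals were wider. hsa-miR-99b-3p had 7275 counts (1036 CPM) in shLuc and 5767 counts (836 CPM) in shELOVL5, a ratio of 0.807 (0.779 to 0.835). For hsa-let-7e-3p the counts were 463 in shLuc and 381 in shELOVL5, giving 0.838 (0.730 to 0.961). hsa-miR-125a-3p stood at 430 counts (61.2 CPM) in shLuc and 420 counts (60.9 CPM) in shELOVL5, and its ratio was 0.994 (0.867 to 1.14). Both arms of the miR-99b hairpin were lower in shELOVL5, whereas of the miR-125a hairpin the guide was lower and the interval of the other arm included 1.

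At MIR100HG, the guide hsa-miR-100-5p was lower while the locus-specific arms of its neighbours, which are 3p arms, were higher. The 3p arm of the miR-100 hairpin itself, hsa-miR-100-3p, was also higher, at 1.48 (1.02 to 2.15) on 51 and 74 counts. hsa-miR-125b-1-3p, the other arm of the chromosome 11 miR-125b hairpin, had 6024 counts in shLuc and 6398 in shELOVL5, a ratio of 1.08 (1.04 to 1.12). For hsa-let-7a-2-3p the counts were 404 in shLuc and 523 in shELOVL5, giving 1.32 (1.16 to 1.504). hsa-miR-100-5p was lower by a factor of 0.803 (0.775 to 0.832) against the former and 0.659 (0.577 to 0.751) against the latter. hsa-let-7a-5p, made also from 2 loci elsewhere, had a ratio of 1.07 (1.07 to 1.08).

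At MIR99AHG the guide of miR-99a was again below its neighbours. hsa-let-7c-5p had 12648 counts in shLuc and 12388 in shELOVL5, a ratio of 0.997 (0.973 to 1.02). Against it hsa-miR-99a-5p was lower by a factor of 0.886 (0.860 to 0.911). hsa-miR-125b-2-3p, the other arm of the chromosome 21 miR-125b hairpin, rested on 308 counts in shLuc and 368 in shELOVL5, and its ratio was 1.22 (1.04 to 1.42). hsa-let-7c-3p rested on 25 and 46 counts, and its ratio was 1.87 (1.13 to 3.18). Both lay below the expression limit. In each of the 3 clusters the miR-99/100 guide had a lower ratio than the let-7 and miR-125 microRNAs listed for that cluster. This holds for the guide arm only and sets it partly against 3p arms. The 3p arms of the miR-100 and miR-99a hairpins, below the expression limit, stood at 1.48 and 1.09.

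**Figure D3:**
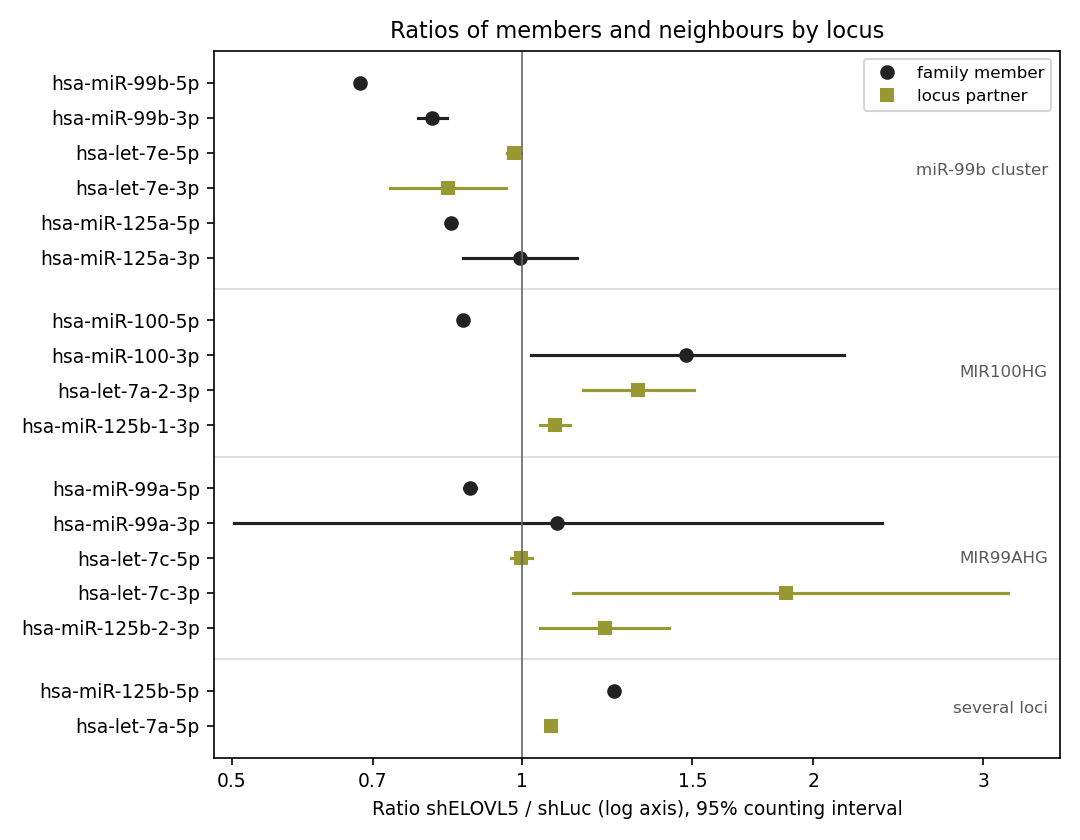
Ratio of shELOVL5 over shLuc (log axis) with its 95% counting interval for members (circles) and locus partners (squares), grouped by cluster, 1 library per condition. The 5p arms of miR-99b, miR-100 and miR-99a lie leftmost in their clusters, at 0.678, 0.868 and 0.883, and hsa-miR-125b-5p, which has 2 loci, lies at 1.24.

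Each 3p arm was the minor arm of its hairpin. Its share of the hairpin's counts was higher in shELOVL5 in all 4 hairpins compared. The minor arm's share was higher in 96 of 185 hairpins with both arms counted. The difference exceeded counting error in 3 of the 4, beside 18.4% of the 185. These 4 leave out both hairpins of hsa-miR-125b-5p, whose 3p arms are not members and whose 3p shares were lower in shELOVL5. That share was 6.73% in shLuc and 5.90% in shELOVL5 for mir-125b-1, and 0.368% and 0.359% for mir-125b-2. MIR100 and MIR99B are printed with both arms in capitals, since they had the lowest and the highest 3p share of the 4 hairpins compared.
MIR100: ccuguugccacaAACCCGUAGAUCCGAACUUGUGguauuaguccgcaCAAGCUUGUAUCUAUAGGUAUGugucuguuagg
MIR99B: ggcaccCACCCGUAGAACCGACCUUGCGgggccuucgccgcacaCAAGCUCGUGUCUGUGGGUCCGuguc

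hsa-miR-100-3p had 51 counts (7.26 CPM) in shLuc and 74 counts (10.7 CPM) in shELOVL5, a ratio of 1.48 (1.02 to 2.15), opposite in direction to its guide. It made up 0.00292% of the hairpin's counts (0.00218 to 0.00384%) in shLuc and 0.00497% (0.00390 to 0.00624%) in shELOVL5. The 3p to 5p ratio was thus higher in shELOVL5 by a factor of 1.70 (1.18 to 2.48), on few counts. In shLuc this 3p share was the 2nd lowest of 185 hairpins.

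hsa-miR-99b-3p made up 5.35% of its hairpin (5.23 to 5.47%) in shLuc and 6.30% (6.14 to 6.46%) in shELOVL5, a factor of 1.19 (1.15 to 1.23). hsa-miR-125a-3p made up 0.625% (0.567 to 0.687%) and 0.736% (0.667 to 0.809%), a factor of 1.18 (1.03 to 1.35). hsa-miR-99a-3p had 15 counts (2.14 CPM) in shLuc and 16 counts (2.32 CPM) in shELOVL5, and its factor of 1.23 (0.569 to 2.67) could not be told from 1 at this depth.

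The interval of the factor lay above 1 in 3 of these 4 hairpins, beside 18.4% of the 185 hairpins with at least 100 counts and both arms counted in each library. Whether an interval leaves out 1 depends on depth, and the 185 were not matched to these hairpins in depth. Over all 185 the median log2 shift of the minor arm against the major arm was 0.028, with 96 shifts above 0 and 89 below. The other hairpins of the same clusters, including both that make hsa-miR-125b-5p, were mixed. The log2 shift was 0.30 for let-7a-2 (as a factor, interval 1.08 to 1.40), whose guide has 2 further loci, and 0.91 for let-7c (1.13 to 3.19), on 25 and 46 counts. It was -0.20 for mir-125b-1 (0.837 to 0.901) and -0.23 for let-7e (0.743 to 0.981), and an interval wholly below 1 was found for 11.4% of the 185. For mir-125b-2 it was -0.034 (0.837 to 1.14). As the guide of both miR-125b hairpins is counted whole for each, their shifts are not separate measurements.

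**Figure D4:**
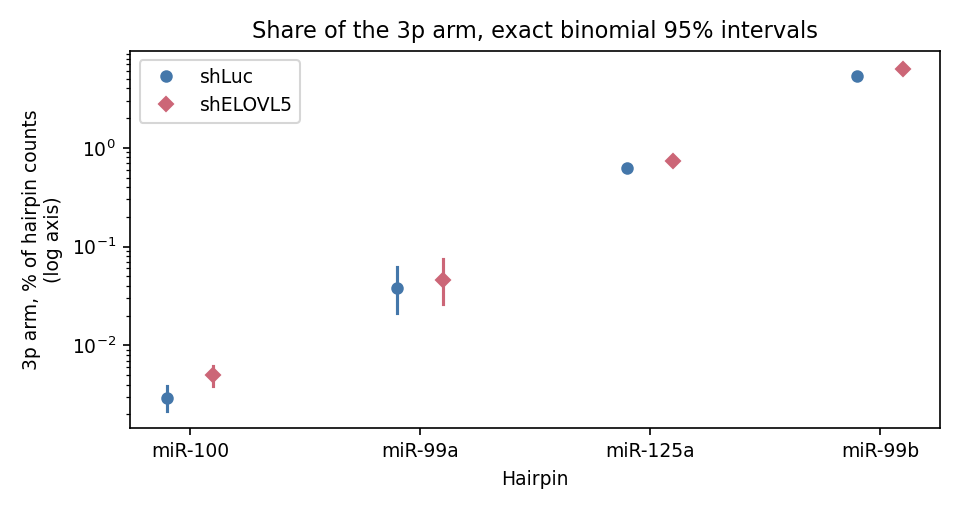
Share of the 3p arm in the counts of 4 hairpins, in percent on a log axis, for shLuc (circles) and shELOVL5 (diamonds), 1 library each, with exact binomial 95% intervals (narrower than the symbol where not visible). The share runs from 0.00292% for miR-100 to 5.35% for miR-99b in shLuc and is higher in shELOVL5 in each hairpin, with overlapping intervals for miR-99a and miR-125a.

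The miR-10 microRNAs of the HOX clusters are related to miR-99/100 in sequence but have another seed. hsa-miR-10a-5p, 3 edits from hsa-miR-100-5p, had 35217 counts in shLuc and 32163 in shELOVL5, a ratio of 0.930 (0.916 to 0.944). hsa-miR-10b-5p, below the expression limit with 108 and 85 counts, stood at 0.801 (0.596 to 1.07).

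Across the 2 libraries, the expressed microRNAs outside the families with the ratio nearest to hsa-miR-100-5p were hsa-miR-374a-5p (0.866), hsa-miR-941 (0.865) and hsa-miR-574-3p (0.873). Nearest to hsa-miR-99b-5p, the expressed member farthest from 1, were hsa-miR-181a-2-3p (0.688), hsa-miR-183-5p (0.703) and hsa-miR-7706 (0.709). With only 2 libraries such likeness is a match of a single ratio.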

How the data were processed

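The authors deposited raw counts of reads for each mature microRNA under each of its precursors, without normalization. RNA came from a Qiagen miRNeasy kit, per the labels' protocols, which speak of tumor material where the sample labels name the cell line. Reads came from NEBNext small RNA libraries on an Illumina NextSeq. The submitters' processing notes name FastQC 0.11.9, cutadapt 2.10 and Bowtie 1.1.1. Not given in the sources used here are the counting program, the microRNA release and the genome build. No molecular identifiers are described, so reads may not be independent molecules. The intervals cover counting error only and treat reads as independent, so they are too narrow where reads are not.

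The highest of several precursor rows was kept (166 of 2656 names). Counts were scaled with TMM (edgeR 4.0.16, R 4.3.3), with factors of 0.988 for shLuc and 1.01 for shELOVL5. Ratio intervals (95%) came from the exact Clopper-Pearson share of 1 library in both counts (scipy 1.17.1). Intervals of factors between microRNAs came from the exact conditional distribution of a 2 by 2 count table (R). No test was possible with 1 library per condition. The text names all members, their cluster partners and miR-10 relatives, seed sharers, cell type markers, and the 3 nearest ratios for each of 2 members. hsa-miR-504-5p, named for its place in a plot, was chosen after its values were seen. Members and lists were chosen with earlier results of these data known. In a simulation of shELOVL5 against shLuc (2656 microRNAs, of which 197 were expressed), 100% of 98 microRNAs changed 3-fold were recovered at 2-fold and 0 of 99 unchanged ones were called; 95.4% of the intervals held the true ratio. The simulation held counting error only. Alternatives were other scalings, other treatments of precursor rows, other filters and size rules, 5 CPM added to both values, and family sums without their largest member.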

Additional observations from a re-analysis of the deposited data

How the results depend on the processing

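No paired analysis was possible because shELOVL5 and shLuc are single libraries, and neither could be left out. Of 54 pairs of a member and a setting, 40 stayed within the counting interval and 14 moved beyond it, 13 of them under the other scalings, which shift every log2 ratio by 0.036 (library total), -0.026 (DESeq2 1.42.0 size factors) or -0.015 (total without hsa-miR-100-5p). The only member to change side of 1 was hsa-miR-125a-3p, at 1.02 with the library total. The miR-99/100 guide sum stood at 0.877 with the library total, 0.840 with DESeq2, 0.847 with the total without hsa-miR-100-5p, 0.853 with summed precursor rows and 0.727 without hsa-miR-100-5p in the sum. The miR-125 guide sum stood at 1.09, 1.05, 1.05 and 1.12 under the same 4 settings and turned to 0.844 without hsa-miR-125b-5p. With summed rows, which count hsa-miR-125b-5p under both hairpins, its share of the family was 7.34 percentage points higher in shELOVL5, against 9.34. The arm and neighbour factors stayed within their intervals when rows were summed or the lowest was kept. Over the whole table, 3 microRNAs were at least 2-fold higher and 0 lower. The counts were 5 and 0 with a mean of 10 CPM, 0 and 0 with 1000 CPM, 120 and 77 with no filter, 6 and 1 at 1.5-fold, and 19 and 19 for levels at least 25% higher or at least 20% lower. Depth limits hsa-miR-99a-3p and hsa-miR-100-3p, and the lack of replicates limits every comparison.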
